A study of Mus musculus with 3 samples.

Results

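Transcripts of the spindle checkpoint and of the kinases that run mitosis were measured in mast cell progenitors (MCps) of WT and p85α−/− mice. The 10 genes are Bub1, Bub1b, Bub3, Mad2l1, Ttk, Cdc20, Aurka, Aurkb, Birc5 and Plk1. They were chosen by name, and every non-control probe carrying one of these names was taken, which gave 14 of the 41174 probes and 10 of the 27962 gene names on the array. Bub3 had 4 probes, Mad2l1 had 2 and each of the other genes had 1. MCps are mast cells at an immature stage, raised in culture from marrow. Marrow cells of 3 WT and 3 p85α−/− mice spent 7 days in IL-3 at 10 ng/mL, were sorted for surface KIT together with the IgE receptor, and then all received the KIT ligand SCF at 100 ng/mL over 48 hours. There was no culture without SCF, so both genotypes were measured only in its presence, and the strain, age and sex of the mice are not given in the sources used here. Because few cells were sorted, their cDNA had been amplified by PCR. Each of the 3 Agilent arrays held 1 WT culture labeled with Cy3 and 1 p85α−/− culture labeled with Cy5, so an effect of the dye and an effect of the genotype cannot be told apart.

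The spindle checkpoint holds a cell in metaphase until every chromosome is attached to the spindle. At unattached kinetochores the kinases TTK (MPS1) and BUB1 and the proteins BUB3, BUBR1 and MAD2 build an inhibitor of CDC20, the activator of the anaphase promoting complex, and the inhibitor is lost once attachment is complete. Aurora A and PLK1 act at the centrosomes and the spindle, and Aurora B with survivin corrects wrong attachments and works again in cytokinesis. Mast cells arise from dividing marrow progenitors, and transcripts of this kind are mostly made in the G2 and M phases of dividing cells, so in a bulk sample their level follows the share of cells in these phases as well as the RNA made per cell. Fewer expressing cells and less RNA per cell could not be told apart on these arrays.

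Many promoters of genes expressed in G2 and M carry a CHR element, TTTGAA, close to CCAAT boxes. The promoter windows used here, from RefSeq (GRCm38.p6), covered 9 of the 10 genes and lacked Aurkb. A window held the 250 bases before and 50 after each annotated start. The search covered TTTGAA, the related TTCGAA and CCAAT, letter by letter and on both strands. TTTGAA stood in the promoter windows of 6 of the 9 genes (Bub1b, Bub3, Ttk, Cdc20, Aurka and Plk1), against 17.9% of all 32851 promoter windows in the table. CCAAT stood in 7 of the 9, the same 6 and Bub1, against 37.4% of all windows. Both stood in 6 of the 9, against 6.95% of all windows. TTCGAA stood in those of Bub1 and Bub1b, against 1.56%. The windows of Mad2l1 and Birc5 held none of these letters. Shown are the 250 bases before the start, 5′ to 3′ on the gene's strand, of Bub3, Cdc20 and Aurka, the genes that exceed both thresholds used below once replicate 2 is set aside, and of Plk1, which ran against them on arrays 1 and 3. Capitals mark TTTGAA or CCAAT on either strand (TTCAAA and ATTGG on the other). They lie on chr7:131560120-131560369 (plus strand), chr4:118437344-118437593 (minus), chr2:172370571-172370820 (minus) and chr7:122159185-122159434 (plus).
Bub3: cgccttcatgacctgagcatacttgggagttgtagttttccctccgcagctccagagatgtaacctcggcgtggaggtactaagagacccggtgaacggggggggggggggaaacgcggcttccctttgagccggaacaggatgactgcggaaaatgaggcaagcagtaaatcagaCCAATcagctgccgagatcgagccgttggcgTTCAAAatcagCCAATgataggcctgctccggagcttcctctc
Cdc20: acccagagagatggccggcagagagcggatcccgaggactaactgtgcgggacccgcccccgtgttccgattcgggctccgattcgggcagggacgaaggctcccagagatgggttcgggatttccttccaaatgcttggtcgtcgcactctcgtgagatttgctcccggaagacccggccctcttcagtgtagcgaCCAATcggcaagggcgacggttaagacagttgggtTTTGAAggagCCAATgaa
Aurka: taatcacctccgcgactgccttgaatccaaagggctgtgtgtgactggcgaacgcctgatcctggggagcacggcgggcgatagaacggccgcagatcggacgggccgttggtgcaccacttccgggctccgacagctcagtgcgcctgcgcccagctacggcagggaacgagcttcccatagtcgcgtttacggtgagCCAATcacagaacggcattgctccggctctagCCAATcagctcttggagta
Plk1: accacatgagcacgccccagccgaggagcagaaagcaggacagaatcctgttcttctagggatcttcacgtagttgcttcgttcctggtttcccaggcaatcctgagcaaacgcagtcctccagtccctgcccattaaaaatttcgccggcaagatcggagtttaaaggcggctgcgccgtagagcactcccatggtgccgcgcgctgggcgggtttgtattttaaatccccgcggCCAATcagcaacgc
In the Bub3 promoter the TTCAAA at position −43 lay between CCAAT boxes at −74 and −32, counted from the start that the stretch shown precedes. Counted from the other of the 2 annotated Bub3 starts, it lay at −167 and the boxes at −198 and −156. In the Cdc20 promoter TTTGAA at −18 lay between boxes at −53 and −8. In Aurka and Plk1 TTTGAA lay after the start, at 33 and 31, outside the stretch shown, and CCAAT stood at −51 and −19 in Aurka and at −14 in Plk1. The arrays do not measure these elements, and a match says only that the letters are there.

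Levels are normalized log2 intensities, set side by side only within a probe, and a log2 ratio is the p85α−/− level minus the WT level on the same array. The median raw spot signal was between 71.5 and 141.2 in the WT channels and between 206.6 and 517.3 in the p85α−/− channels, no spot was saturated, and from 69.4% to 93.8% of spots were well above background. Both the highest median (517.3) and the highest share (93.8%) were those of the p85α−/− channel of array 2, where the other p85α−/− channels had 210.9 and 206.6 with 77.6% and 77.3%, and the WT channel of array 2 had the lowest of each (71.5 and 69.4%). The part of this in the ratios of array 2 was not tested. Across all probes, the ratios of 1 array had Pearson correlations between −0.03 and 0.17 with those of another. The targeted gene Pik3r1 had 4 probes, with mean log2 ratios of 0.59, −0.58, 0.32 and −0.04, so these probes do not separate the genotypes and each direction below is that of the cultures labeled p85α−/−. Of the 13 mast cell markers with a probe, 12 were well above background in every WT channel and 13 in every p85α−/− channel, among them Kit and Fcer1a.

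None of the 14 probes passed limma's test after Benjamini-Hochberg adjustment. Their lowest adjusted p was 0.908, as against 0.763 over all 41157 probes tested, of which 0 (0%) had an adjusted p under 0.05. Nor did any of the 14 meet the looser criteria of the methods, at least 1.5-fold with an unadjusted p under 0.05, which 1829 probes (4.44%) met, 2.78% higher and 1.66% lower in p85α−/−. What the probes did show was a split between arrays. The ratio at the leading probe was above 0 for 9 of the 10 genes on array 1, 6 on array 2 and 9 on array 3, beside 13319, 13540 and 13411 of the 27951 gene names tested. Mad2l1 counts among the 9 by its leading probe, while its other probe was at −0.08 on array 1 and −1.82 on array 3. On array 2 the highest of the 10 log2 ratios was 0.44. The 3 arrays limit the precision of every mean below.

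**Figure D1:**
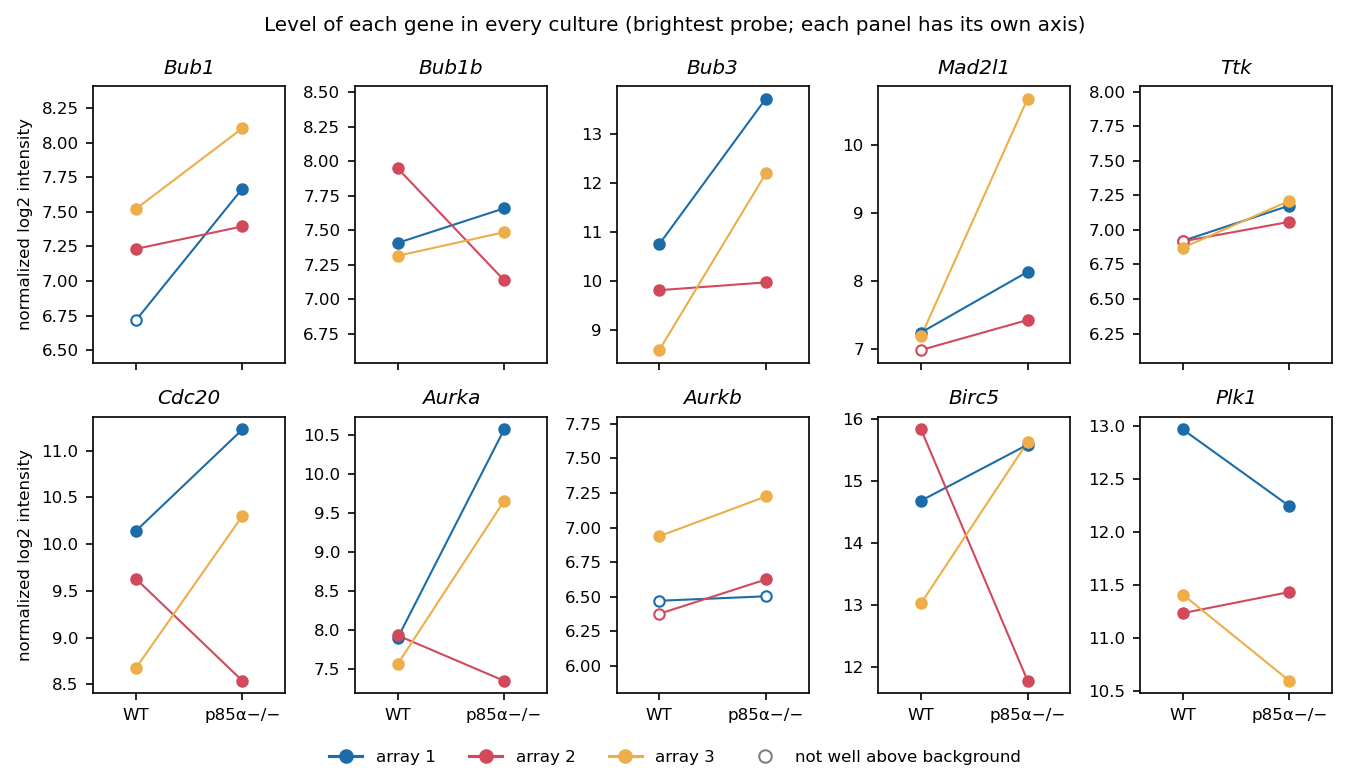
Normalized log2 intensity (vertical axis, own scale in each panel) of the 10 genes in the WT and p85α−/− culture of arrays 1 to 3, with a line joining the cultures of 1 array and open points for signals not well above background. For Aurka, Cdc20 and Birc5 the lines of arrays 1 and 3 go up and the line of array 2 goes down, and the WT and p85α−/− points overlap for 8 of the 10 genes.

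Among the checkpoint genes, Bub3 had the highest mean ratio under the main processing. Mad2l1 stood above it with the software's processed signals (2.77 as against 2.27) and with its log ratio (2.91 as against 2.34). The same held without replicate 1 (1.97 as against 1.88). BUB3 is the adaptor that brings BUB1 and BUBR1 to the kinetochore. The probe that leads by mean intensity stood at 10.76, 9.82 and 8.60 in the WT cultures of arrays 1, 2 and 3 and at 13.72, 9.98 and 12.20 in the p85α−/− cultures. The p85α−/− culture was therefore the higher one on every array, by 7.81-fold, 1.12-fold and 12.1-fold, but that of array 2 lay below the WT culture of array 1, so the groups overlapped. The mean log2 ratio was 2.24 ± 1.83 (SD, n = 3), with a 95% interval of −0.07 to 4.55. The adjusted p of limma's test was 0.908, and p before adjustment was 0.054. Bub3 is one of the genes that the study listed from these same arrays, so its values here are not independent evidence. Its mean was 1.88 without replicate 1 and 1.56 without replicate 3. Without replicate 2 its mean was 3.28 and it met both criteria of the methods (unadjusted p = 0.0048 and adjusted p = 0.592 by limma). It also met them when probes at background were left out (2.24), as 5.25% of the remaining probes did, and with median centring (3.38), as 6.54% did.

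The 4 Bub3 probes lie along chromosome 7 by the array's own coordinates (no genome build is named), and the gene runs in the direction of rising coordinates. The leading probe (127925425 to 127927641, NM_009774) is split over 2217 bases, so it crosses an intron. The probe nearest the 3′ end (127928438 to 127928497, also NM_009774) had log2 ratios of 1.59, 0.17 and 2.42 and a mean of 1.39 ± 1.14. It repeated the order of the arrays seen at the leading probe. The 5′-most probe (127918956 to 127919015, BC086790) had ratios of 0.40, 0.13 and 0.21. The remaining probe (127926908 to 127926967), designed on the cDNA AK083742, lies within the gap of the split probe and had ratios of 0.05, 0.21 and −0.01. It was well above background on 2 of 3 arrays in each genotype. As normalized here, high ratios on arrays 1 and 3 were thus seen at the pair of NM_009774 probes and not at the other 2. By the scanner software's log ratio, arrays 1 and 3 gave 1.18 and 0.94 at BC086790 and 0.50 and −0.47 at AK083742. The leading probe gave 3.11 and 3.82, and the 3′ one 1.87 and 4.09. Raw WT signals at BC086790 were low (45, 48.9 and 52.3), and their part in this contrast was not tested. Averaged over its 4 probes, as normalized, Bub3 had a log2 ratio of 0.99. Which transcripts each probe detects was not tested.

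Mad2l1 encodes MAD2, the protein that changes fold at unattached kinetochores and captures CDC20. Its leading probe (chromosome 6, 66520777 to 66520836, NM_019499) stood at 7.24, 6.98 and 7.18 in WT and at 8.13, 7.42 and 10.68 in p85α−/−. This probe leads only through its p85α−/− mean (8.75, as against 7.70 at the gene's other probe), as its WT mean was the lower one (7.14, as against 7.98). Its separation of the genotypes and its mean ratio thus rest in part on that choice. At this probe every p85α−/− culture was above every WT culture, as was the case for 2 of the 10 genes (Mad2l1 and Ttk) and for 4.44% of all gene names, and the WT signal was well above background on 2 of 3 arrays. The mean log2 ratio was 1.61 ± 1.65, of which array 3 gave by far the most (0.89, 0.44 and 3.50), and limma's adjusted p was 0.908. Without replicate 3 the mean was 0.67, and averaged over both probes of the gene it was 0.66. The other probe, 883 bases further in the 3′ direction and designed on the mRNA U83902, had log2 ratios of −0.08, 1.05 and −1.82. On array 3 the probes of this gene thus stood on opposite sides, 11.3-fold higher at one and 3.52-fold lower at the other. With the software's processed signals the leading probe alone of the 14 met both criteria (2.77), beside 4.65% of all probes.

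**Figure D2:**
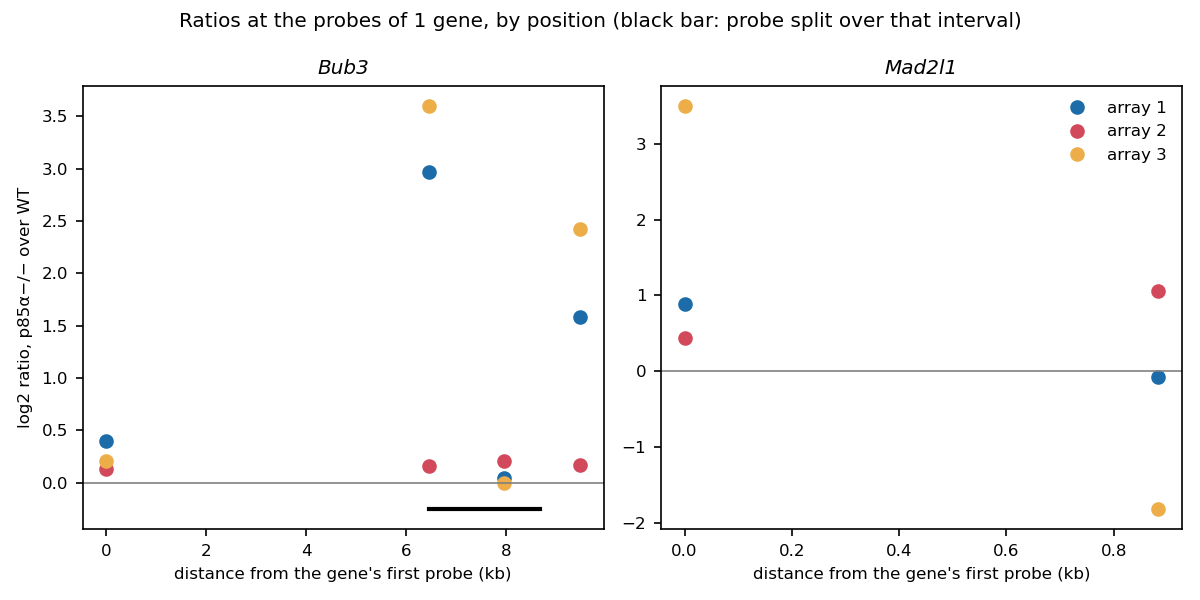
Log2 ratio of p85α−/− over WT (vertical axis) at each probe of Bub3 and Mad2l1 against the distance in kb from the gene's first probe (horizontal axis), with 1 point for each array and a black bar for the interval that the split Bub3 probe spans. For Bub3 the points of arrays 1 and 3 are high at the probes at 6.47 and 9.48 kb and near 0 at the others, and for Mad2l1 the point of array 3 goes from 3.50 to −1.82.

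TTK, the kinase that starts checkpoint signalling, had WT levels of 6.92, 6.92 and 6.87 and p85α−/− levels of 7.18, 7.06 and 7.21. All p85α−/− cultures of Ttk lay above all WT cultures, with a mean log2 ratio of 0.25 ± 0.10 and WT signals well above background on 1 of 3 arrays. That ratio was 0.88 with the software's processed signals, 1.03 with its log ratio and 0.06 with median centring. Bub1, the kinase that marks centromeric chromatin and recruits other checkpoint proteins, stood at 6.72, 7.23 and 7.52 in WT and at 7.67, 7.39 and 8.10 in p85α−/−. Its p85α−/− culture was higher within each array, by log2 ratios of 0.95, 0.16 and 0.58, while the groups overlapped. On array 1, which gave the highest of these ratios, the WT signal was not well above background. The mean ratio of Bub1 was 0.57, and it was 1.40 with processed signals and 1.58 with the software's log ratio. Bub1b encodes BUBR1, the part of the inhibitor that binds CDC20 together with MAD2. Its levels were 7.41, 7.95 and 7.31 in WT and 7.66, 7.14 and 7.49 in p85α−/−. Bub1b was slightly higher in p85α−/− on arrays 1 and 3 and lower on array 2 (−0.81), with a mean of −0.13 ± 0.59 that became 0.21 without replicate 2. By limma's test the adjusted p was 0.908 for Ttk and Bub1 and 0.967 for Bub1b.

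Cdc20, which the checkpoint inhibits, stood at 10.14, 9.63 and 8.67 in WT and at 11.23, 8.54 and 10.30 in p85α−/−. It was 2.12-fold and 3.09-fold higher in p85α−/− on arrays 1 and 3 and 2.13-fold lower on array 2. The mean log2 ratio was 0.54 ± 1.44 (95% interval −1.32 to 2.40, adjusted p = 0.920 by limma). Without replicate 2 the mean was 1.36 and Cdc20 met both criteria of the methods, without replicate 3 it was −0.0028, and with median centring it was 1.52.

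Aurka, the kinase of centrosome maturation and spindle assembly, also stood higher in p85α−/− on arrays 1 and 3 and lower on array 2. Its WT cultures were close together at 7.89, 7.93 and 7.56, while the p85α−/− cultures stood at 10.57, 7.34 and 9.65. The p85α−/− cultures of arrays 1 and 3 were above all WT cultures, 6.40-fold and 4.28-fold higher than their partners, and that of array 2 was below all of them. The SD over cultures was 0.20 in WT and 1.66 in p85α−/−. The mean log2 ratio was 1.40 ± 1.74 (95% interval −0.80 to 3.60, adjusted p = 0.908 by limma), and it was 0.76 without replicate 1, 2.39 without replicate 2, where both criteria were met, and 1.05 without replicate 3.

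Birc5 encodes survivin, a subunit of the chromosomal passenger complex with Aurora B and also a member of the family of inhibitors of apoptosis. Its levels were 14.68, 15.83 and 13.03 in WT and 15.58, 11.78 and 15.62 in p85α−/−. The level was 1.87-fold higher in p85α−/− on array 1 and 6.05-fold higher on array 3, and 16.6-fold lower on array 2, the widest range of the 10 genes. Its mean of −0.18 ± 3.45 has a 95% interval of −4.41 to 4.04 and turns to 1.75 without replicate 2 and to 1.14 with median centring. Aurkb, the catalytic subunit of that complex, stood at 6.47, 6.38 and 6.94 in WT and at 6.50, 6.62 and 7.22 in p85α−/−. It was near background, with a signal well above it on 1 of 3 arrays in WT and 2 of 3 in p85α−/−, and its mean log2 ratio of 0.19 ± 0.14 became −0.33 with median centring. The probes of Birc5 and Aurkb had adjusted p of 0.992 and 0.922 by limma's test.

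Plk1, the polo-like kinase that drives mitotic entry and centrosome maturation, stood at 12.96, 11.23 and 11.41 in WT and at 12.24, 11.43 and 10.60 in p85α−/−. Here arrays 1 and 3 were the lower ones, at 1.65-fold and 1.76-fold below WT, and array 2 was 1.15-fold above. The mean log2 ratio was −0.45 ± 0.56 (95% interval −1.38 to 0.49, adjusted p = 0.908 by limma), and it became 0.72 with median centring. By leading probe, Plk1 was the one gene of the 10 to have its highest ratio on array 2.

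**Figure D3:**
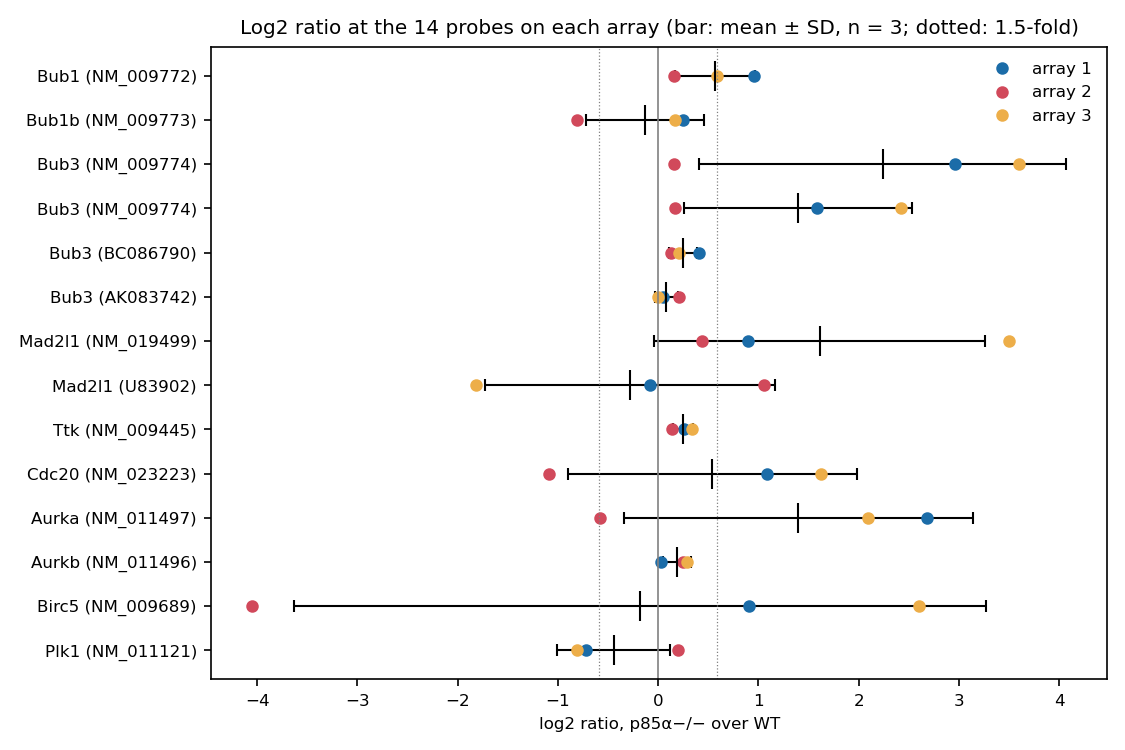
Log2 ratio of p85α−/− over WT (horizontal axis) at each of the 14 probes on arrays 1 to 3, with the mean as a vertical tick, the SD over 3 arrays as a bar and 1.5-fold as dotted lines. The array 2 point is the lowest at 10 of the 14 probes, and the probe of Birc5 runs from −4.05 to 2.60.

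Put together by array, the median log2 ratio of the 10 genes at their leading probes was 0.90 on array 1, 0.15 on array 2 and 1.11 on array 3, where the medians of all probes were between −0.01 and −0.0056. At least 1.5-fold higher in p85α−/− were 6 genes on array 1, 0 on array 2 and 5 on array 3, where the leading probes of all gene names gave 18.5%, 23.2% and 18.8%. At least 1.5-fold lower were 1, 3 and 1 genes (all gene names 22.3%, 21.2% and 26.3%). The ratio was lowest on array 2 for 8 of the 10 genes, as it was for 36.6% of gene names. The same sign on all arrays was seen for 5 genes, each of them higher (Bub1, Bub3, Mad2l1, Ttk and Aurkb), where 11.8% of gene names were higher on all arrays. Mad2l1 enters the counts and medians of this paragraph by a probe that leads only through its p85α−/− level, and its other probe had ratios of −0.08, 1.05 and −1.82. Over the arrays together 7 of the 10 means were above 0, with a median of 0.39 and a range of −0.45 to 2.24, beside 43% of gene names above 0 and a median of −0.05 over all probes. By role, the 5 checkpoint signalling genes had a median of 0.57, with 4 above 0, and the 4 genes of the kinases and survivin had a median of 0.0031, with 2 above 0. The median over the 10 genes was 0.27 without replicate 1 and 0.17 without replicate 3, with 0 of the 14 probes past both criteria of the methods in either case. Without replicate 2, whose low ratios had been seen, the median was 1.06, and 4 of the 14 probes (both NM_009774 probes of Bub3 and those of Cdc20 and Aurka) met both criteria, as did 7.69% of all probes. The genes share the cultures of each array, so their common order over arrays is no repeat of a genotype effect.

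The other genes of mitosis had array medians closer to 0. Of 112 genes listed for the checkpoint, passenger complex, kinetochore, anaphase promoting complex, cohesin, mitotic cyclins, kinases and spindle motors, 103 had a probe. Their mean log2 ratios were above 0 for 50 and below 0 for 53, with a median of −0.01 and array medians of −0.09, 0.01 and 0.18. With median centring their median was 0.41 while that of all probes was 0.09. None had an adjusted p under 0.05 by limma's test, and 5 were higher and 1 lower by the criteria of the methods, beside 5.21% of the leading probes of all gene names. Incenp, the scaffold on which Aurora B and survivin assemble, was higher in p85α−/− on all arrays, at log2 ratios of 0.42, 1.46 and 1.11. Numa1, which holds spindle poles together, was at 1.92, 0.75 and 3.77, and the subunit Anapc4 of the complex that CDC20 activates was at 3.40, 1.39 and 0.80. Nek9, a kinase upstream of centrosome separation, was at 1.59, 0.34 and 1.23, and the kinetochore protein Cenpi at 1.05, 0.40 and 1.27. Kif20a, the kinesin that places PLK1 and Aurora B at the central spindle, was the lower one, at −0.85, −1.43 and −0.45. Of 2 probes each, Numa1 and Nek9 had 2 with a mean above 0, Anapc4 only its leading one and Kif20a 0. These 6 were named because they met the criteria over the same arrays, which favours genes of 1 sign on all of them, and 6 of 103 is near the share over all gene names. By group, the ratios above 0 were 5 of 10 for other checkpoint genes, 5 of 9 for partners of the Aurora kinases and passenger proteins, 9 of 14 for other mitotic kinases, 3 of 9 for mitotic cyclins and CDC25, 6 of 14 for the kinetochore, 6 of 16 for the anaphase promoting complex, 4 of 8 for separase and cohesin, and 12 of 23 for spindle motors and cytokinesis. The array medians were 0.42, 0.97 and 0.67 for the Aurora and passenger partners, whereas they were −0.85, −0.03 and 0.04 for the anaphase promoting complex.

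**Figure D4:**
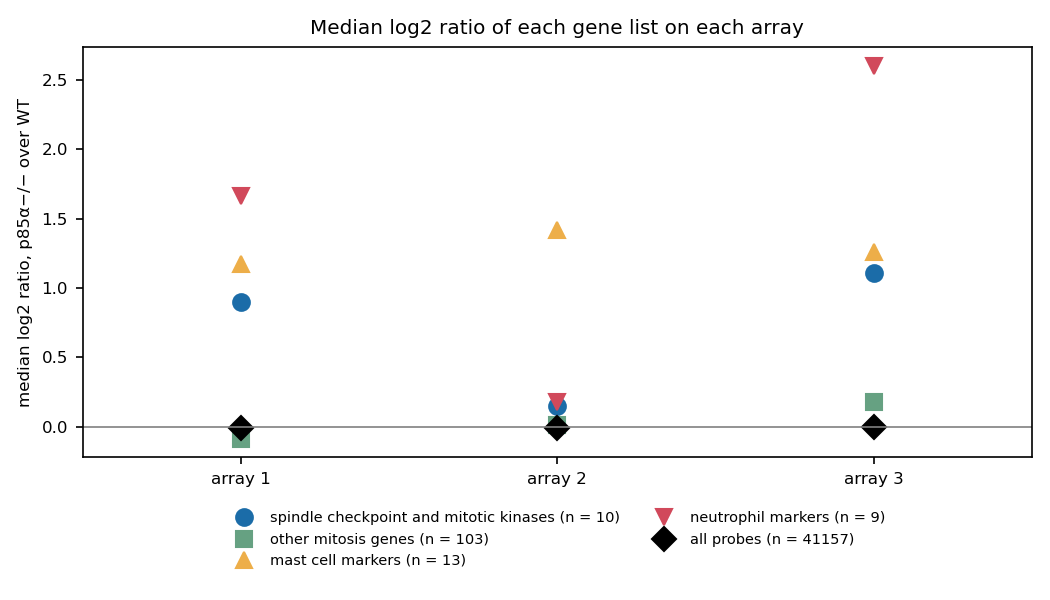
Median log2 ratio of p85α−/− over WT (vertical axis) on each of the 3 arrays for the 10 genes, the 103 other mitosis genes, mast cell and neutrophil markers and all probes. The 10 genes go from 0.90 to 0.15 to 1.11, the neutrophil markers from 1.67 to 0.17 to 2.60, and the other mitosis genes stay between −0.09 and 0.18.

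Markers of other cell types also differed between the arrays. The 9 neutrophil markers with a probe had median log2 ratios of 1.67, 0.17 and 2.60. Their summed level lay between 9839 and 19810 in the WT cultures and was 72140, 6847 and 230600 in the p85α−/− cultures of arrays 1, 2 and 3, and 6 of the 9 had their lowest ratio on array 2. The sum adds levels of different probes, among which Mpo weighs heavily. Without Mpo it lay between 2842 and 5137 in WT and was 26540, 5209 and 32950 in p85α−/−. Every one of the 9 was well above background in all p85α−/− cultures and 8 of them in all WT cultures. They did not move as one. Mpo and Elane had the lowest log2 ratios of the list on array 2 (−3.37 and −1.77) and the highest on array 3 (5.39 and 4.90), while Ctsg was at 2.44 on array 2, and Prtn3, Ltf and Ngp were at −1.58, −1.51 and −0.19 on array 3. The sort for KIT and the IgE receptor preceded the culture in SCF. Mast cell markers had 12 of 13 means above 0, and their medians on the arrays were 1.17, 1.42 and 1.26. The medians on arrays 1, 2 and 3 were 0.59, 0.58 and 1.73 over 3 basophil markers, 0.11, −0.35 and 0.17 over 6 erythroid markers and 0.01, −0.34 and −0.18 over 10 macrophage markers, so each of these lists, like the neutrophil list and the 10 genes, was lowest on array 2, though arrays 1 and 2 were nearly equal for the basophil markers. The part of these cells or transcripts in the ratios of the 10 genes was not tested.

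The profile of the 10 genes over the 6 cultures, as the mean of their leading probes each centred on its own mean, was 0.87 and 0.73 in the p85α−/− cultures of arrays 1 and 3, −0.06 and −0.18 in the WT cultures of arrays 1 and 2, −0.66 in the WT culture of array 3 and −0.70 in the p85α−/− culture of array 2. Without Birc5 the WT culture of array 3 was at −0.58 and the p85α−/− culture of array 2 at −0.49, so which of them was lowest rests on that gene. The probes of other genes most like this profile were those of Fli1 and Upk1a (Pearson r = 0.995 over 6 cultures), Gtf2f2 (0.995), Usp28 (0.994) and 6332401O19Rik (0.993), picked as the highest of all probes with a gene symbol and given as a description. Fli1, a transcription factor of blood cells, had log2 ratios of 1.78, −0.60 and 2.49.

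**Figure D5:**
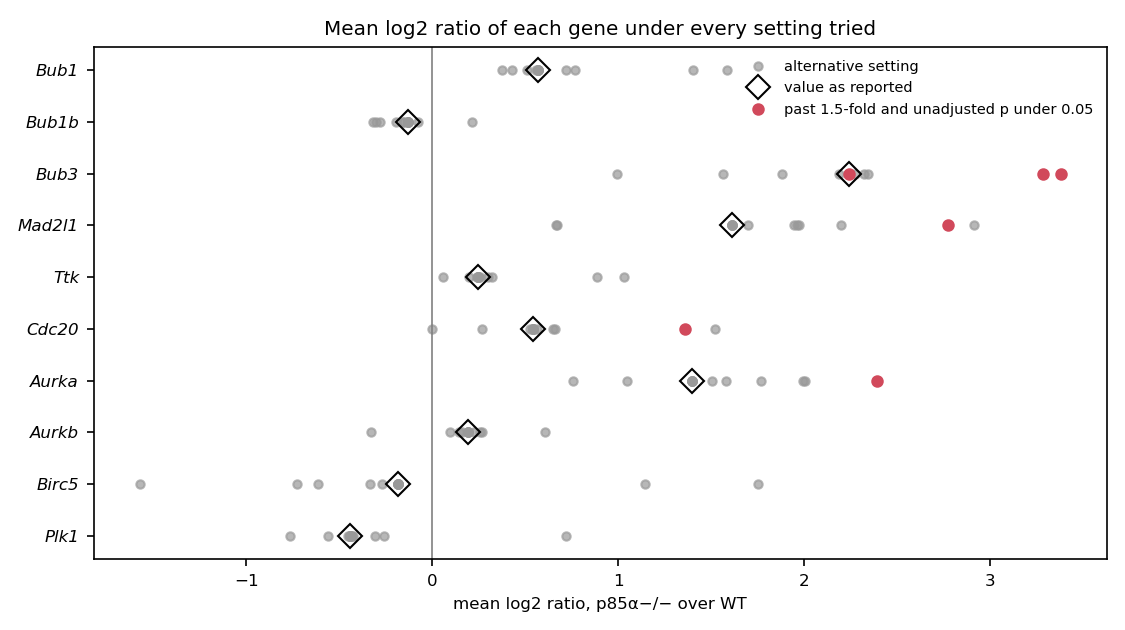
Mean log2 ratio of p85α−/− over WT (horizontal axis) of the 10 genes as reported (diamonds) and under each alternative setting (grey points, red where the probe met 1.5-fold and an unadjusted p under 0.05). Bub1, Bub3, Mad2l1, Ttk and Aurka stay above 0 throughout, and Birc5 runs from −1.57 to 1.75.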

How the data were processed

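Both the 10 genes and the gene lists were chosen with earlier results of these data known. For every array the authors deposited the scanner output of Agilent Feature Extraction 9.5.1.1 (protocol GE2-v5_95_Feb07), which gives each spot's intensity and local background, not normalized, and processed intensities corrected by that software for background and dye. The deposited log10 ratio of Cy5 over Cy3 comes from the same software. The authors also deposited a value table with a log10 ratio for each probe on each array. Their methods name quantile normalization across chips and Student's t-test at 1.5-fold and p under 0.05.

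From the mean and background intensities, normexp correction (offset 50) and quantile normalization over all 6 channels were applied to log2 values in R 4.3.3 with limma 3.58.1. No deposited column was left unmapped (0). Control spots and outlier flags were left out and spots of 1 probe averaged, and 41157 of 41174 probes had a value on every array. The within-array log2 ratio, which pairs the cultures hybridized together, was tested against 0 with limma's moderated test and adjusted over all probes. That replicates were separate mice comes from the labels. For a gene with several probes, that with the highest mean log2 intensity leads. Named are Pik3r1, the 10 genes with every probe, listed mitosis genes whose leading probe met 1.5-fold and an unadjusted p under 0.05, and the 5 probes most like the mean profile. Cell type markers named singly were chosen after their values were seen. The cell type lists were mast cell, neutrophil, macrophage, basophil and erythroid markers, and the median log2 ratio was 0.89 over 3 basophil and −0.0043 over 6 erythroid genes. Genes were matched by the array's names, older ones included (Ela2 for Elane), and 11 of the 14 probes carry an accession of the RefSeq table. Alternatives were loess, median centring, no background subtraction, processed signals, the software's log ratio, outlier spots kept, dim probes left out, the methods' t-test (unpaired and paired), no pairing by array, the mean over a gene's probes and each replicate left out. The procedure was tested on simulated data.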

Additional observations from a re-analysis of the deposited data

How the results depend on the processing

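No setting gave any probe of the array, or any of 27951 gene names averaged over their probes, an adjusted p under 0.05. With median centring in place of quantile normalization, under which the median over all probes was 0.09 in place of −0.05, Aurkb was at −0.33, Birc5 at 1.14 and Plk1 at 0.72, so the direction of these 3 genes turned. In that setting 2 member probes (both of Bub3) met 1.5-fold with an unadjusted p under 0.05, the median over the 10 genes was 0.93 and that of the other mitosis genes 0.41. With processed signals 1 member probe met them (Mad2l1), and with dim probes left out 1 did (Bub3, with Aurkb no longer tested). The median over the 10 genes, 0.39 as reported, was 0.70 with processed signals and 0.84 with the software's log ratio. That of the other mitosis genes was −0.07 and −0.0089 in these settings. The methods' t-test put 1125 probes of the array past both criteria unpaired and 819 paired, as against 1829, and 0 of the 14 in either form. With no replicate block, that is without the pairing by array, limma put 1809 past them, and this changed no call on the 14 probes.

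With 1 replicate left out, member probes past both criteria ran from 0 to 4 and all probes from 1555 to 3165, the median over the 10 genes from 0.17 to 1.06 and that of the mitosis list from −0.070 to 0.18. Bub1b ran from −0.32 to 0.21 and Birc5 from −1.57 to 1.75, both turned in direction without replicate 2, and Cdc20 ran from −0.0028, turned without replicate 3, to 1.36. The cause of these changes was not tested. Bub1, Bub3, Mad2l1, Ttk and Aurka were above 0 in every alternative, of which those that change only the test or which spots or probes are kept gave the same ratio for these genes, with log2 ratios from 0.37 to 1.58, 0.99 to 3.38, 0.66 to 2.91, 0.06 to 1.03 and 0.76 to 2.39. The authors' value table was not run as an alternative, because its columns for replicates 2 and 3 hold the scanner's ratio of the same probe at 0 of the 14 member probes. Signals near background limit Aurkb, Ttk, Bub1 and Mad2l1 in WT.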

Other observations

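In the deposited value table, the log10 ratio of replicate 1 equaled the scanner's ratio of the same probe at 14 of the 14 probes of these genes (tolerance 1.5e-05 on the log10 scale), and at 0 of the 14 for replicate 2 and 0 of the 14 for replicate 3. On the log2 scale and in the direction of p85α−/− over WT, the Plk1 probe had a scanner ratio of 0.07 on array 2, where the table lists −4.39, and the Birc5 probe had −4.34, where the table lists −0.28. On array 3 the leading Mad2l1 probe had a scanner ratio of 5.32 and a table value of 0.65, and the split Bub3 probe had 3.82 and 4.50. Each value that the table lists at these 14 probes for replicates 2 and 3 occurs, within that tolerance, in the scanner output of the same array as the ratio of at least 1 other probe. The 0 listed for Aurka and the second Mad2l1 probe in replicate 3 is held by 2098 probes. How often an arbitrary value would find a match among so many probes was not tested, so the matches do not show where the values came from.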
